A study of Bos taurus with 8 samples.

Results

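Bovine embryo-derived stem-like cells (eSLCs) of later passage were compared with eSLCs of earlier passage. The later lines were I2 at passage 35, N2 at passage 36 and P4 at passage 36. I9 at passage 30, N7 at passage 30 and P1 at passage 31 were the earlier lines. Each side therefore held 1 line from an in vitro produced (IVP) blastocyst, 1 from a somatic cell nuclear transfer (NT) blastocyst and 1 from a parthenogenetic (PA) blastocyst, and these 6 arrays were chosen by passage from the 8 arrays of the series. The other 2 arrays held bovine somatic cells (SCs) at passages 5 and 10. They belong to neither side, and their signals are given beside some of the genes. All 6 eSLC lines grew as colonies on mouse STO feeder cells in a 3i medium, which inhibits FGF receptors, MEK and GSK3, and colonies were moved mechanically to fresh feeders every few days.

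No line was measured at both stages. The sides differ in passage and in line at once, and these cannot be told apart. Every eSLC line is a single culture on a single array, so p-values measure the spread between 3 lines of different origin on each side. The passages lie only 4 to 6 apart.

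eSLCs from cattle blastocysts often carry the program of trophectoderm, the outer layer of the blastocyst that builds the placenta. In ruminants a part of the trophoblast matures into binucleate cells, which migrate to the maternal side and release hormones of the prolactin family, among them placental lactogen and the prolactin-related proteins (PRPs), and pregnancy-associated glycoproteins (PAGs). Mononucleate trophoblast is the source of interferon tau, the signal of early pregnancy, and of other PAGs and Kunitz domain proteins (TKDPs).

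Normalized signals are given on a scale that sets the 75th percentile of every array to 1000, with a floor of 13.3. Of the spots, 71.2% to 76.7% were well above background on each array. From the lowest signal well above background up to the 75th percentile, the measured range spanned 75.3-fold in N2, the narrowest, to 136-fold in N7. Tests covered the 10301 genes that all 3 arrays of a side, or of both, measured well above background. All 6 lines carried the fixed trophectoderm markers at high signals and the pluripotent markers at low ones. The 6 trophectoderm markers CDX2, GATA3, TFAP2A, KRT8, KRT18 and ELF5 were well above background in every line, with summed signals of 433100 to 817300 in the later and 293600 to 812000 in the earlier lines. Most of each sum was KRT8 and KRT18, while ELF5 read 760 to 2555. TFAP2A was also high in the SCs, at 9029 and 9777. The pluripotent markers POU5F1, NANOG and SOX2 summed to between 121 and 128 in the later lines, and to 110 in I9, 233 in P1 and 1031 in N7. The 6 fibroblast markers were well above background in all lines, at summed signals of 6736 to 7887 in the later and 4245 to 8508 in the earlier lines, and their part in the results was not tested.

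I9 and N2, which stand on opposite sides and on different slides, were the most alike of all 15 pairs of arrays (Pearson's r = 0.9931, computed across 10301 genes that are no independent replicates of each other). Between them 230 genes were at least 2-fold apart. The 9 pairs of a later and an earlier line had a median r of 0.9641, against 0.9697 for the 3 pairs of later lines and 0.9506 for the 3 pairs of earlier lines. The arrays did not fall into groups by passage. N7 stood apart, with 190 genes at least 2-fold above and 298 at least 2-fold below every other line, whereas I9 had 8 and 8. P1 had 146 above and 43 below. Many of the differences that N7 moved are also given without it, but not all of them.

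A gene counted as called where limma gave it a Benjamini-Hochberg adjusted p under 0.05 and its means differed 2-fold or more. None was called between the sides, 0% of the 10301 genes tested. The lowest adjusted p was 1. At an unadjusted p under 0.05, 35 genes were higher and 36 lower in the later lines. An exact permutation test of 3 against 3 arrays cannot go below p = 0.10 for a single gene. The median log2 difference over all genes tested was 0.03, with a median standard error (SE) of 0.30. Counted by size alone, 13 genes had signals 2-fold or more higher in the later lines that did not overlap between the sides (0.126% of the genes tested), and 19 were lower in this way (0.184%). Without the 2-fold criterion, the signals of 314 genes did not overlap (3.05%), with 166 higher (1.61%) and 148 lower (1.44%) in the later lines. With the 2-fold criterion, where the main counts were 13 and 19, the series matrix values of the authors gave 624 higher and 52 lower. Their scale put the median of all genes 0.66 higher in the later lines. By the same criterion the counts were 138 and 158 without I9 and N2, and 111 and 113 without I9 alone. Such counts rise by construction, since fewer arrays overlap less often. The text below describes these genes by their values, as higher or lower, and none of them passed the test.

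The 13 genes that were higher in the later lines included 6 of the prolactin family of the placenta, PRP2 with the largest difference among them. PRP2, PRP4, PRP6, PRP14 and PRP1 encode prolactin-related proteins, and CSH2 encodes placental lactogen. PRP2, PRP4, PRP6, PRP14 and CSH2 entered the test through the later lines only, since not all earlier lines measured them well above background. With a filter that required all 6 arrays, the 13 higher genes were 6. On the array, PRP2 (NM_001080377) had normalized signals of 343 in I2, 115 in N2 and 895 in P4, against 29.2 in I9, 14.4 in P1 and the floor in N7. By this probe, its brightest, it was 4.21 higher on the log2 scale (SE 0.76), the largest difference in this direction of the genes tested. The lowest of the later lines lay 1.98 above the highest of the earlier lines. Both SC arrays were at the floor. The other probes of PRP2 were 1.87 and 1.07 higher, with N2 at the floor and sides that overlapped.

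PRP4 (NM_212448) followed the same order of lines, with signals of 321 in I2, 50.7 in N2 and 795 in P4, against 25.6 in I9, 18.5 in P1 and the floor in N7. Its difference was 3.67 (SE 0.97). For PRP6 (NM_205778) the later lines had 185, 38.0 and 400 in I2, N2 and P4, and all 3 earlier lines were at the floor. The fold of PRP6 was at least 10.6. PRP14 (NM_001097562) was at least 4.45-fold higher, with 65.2 in I2, 18.5 in N2 and 172 in P4, and was not well above background in any earlier line. The other PRP14 probe was 0.62 higher on the log2 scale, with N2 at the floor and sides that overlapped. In all 4 genes P4 was highest, then I2, then N2, with a range within the later lines of 2.96 to 3.97 on the log2 scale, so that the later lines differed widely among themselves as well.

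**Figure D1:**
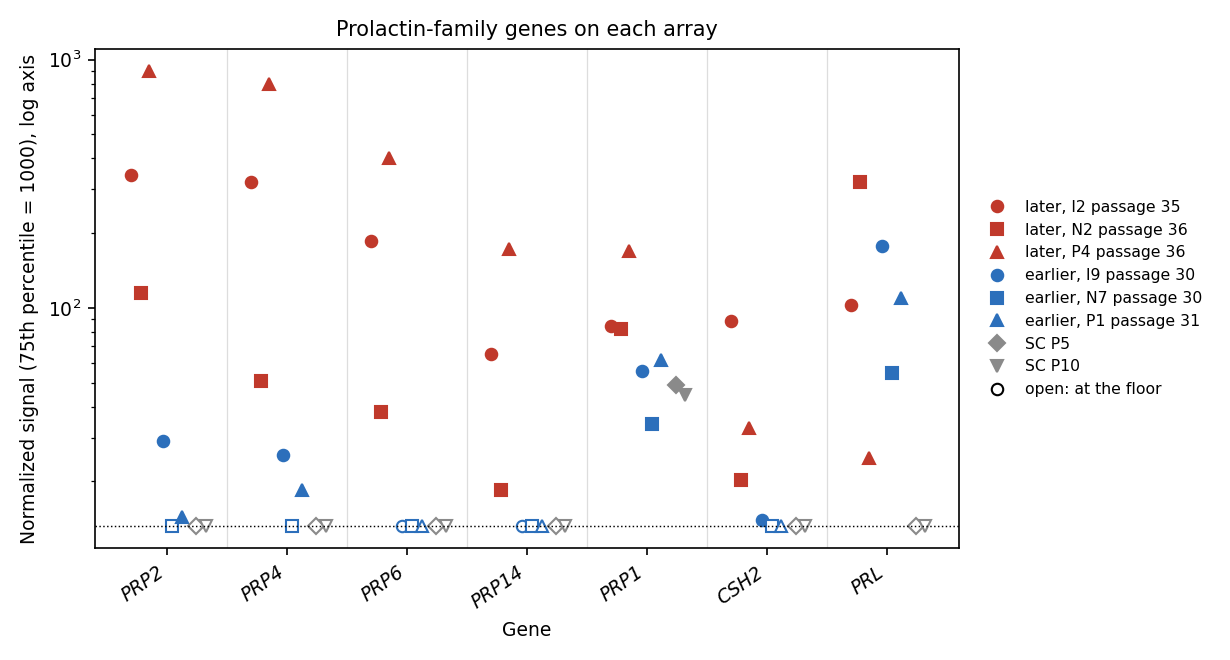
Normalized signals (log axis) of 7 genes of the prolactin family on each of the 8 arrays, later lines in red, earlier lines in blue and SCs in grey, with open symbols for values at the floor (dotted line). In 6 genes the 3 later lines lie above the 3 earlier lines, and in PRL, the pituitary hormone gene, they do not.

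PRP1 (NM_174159) was represented by a probe with signals of 84.6 in I2, 82.1 in N2 and 169 in P4, against 55.5 in I9, 34.0 in N7 and 61.7 in P1. This probe also read 48.9 and 44.5 in the SCs, where most other probes of the family were at the floor. Its difference was 1.11 (SE 0.38). A further probe of PRP1, at the floor in the SCs, gave 108.5 in I2, 37.4 in N2 and 336.5 in P4, with all earlier lines at the floor and a difference of at least 3.06. CSH2 (NM_181007) was highest in I2, at 88.6, followed by 32.8 in P4 and 20.3 in N2, and lay at 14.0 in I9 and at the floor in N7 and P1. Of the 6 CSH2 probes, 4 did not overlap between the sides and were higher in the later lines, beside 1.17% of all probes above background on some eSLC array. Another was 0.44 higher with overlap and 1 was below background in every later line. These probes read the same gene on the same 6 arrays.

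The 7 PRP genes measured, PRP1, PRP2, PRP3, PRP4, PRP6, PRP8 and PRP14, had 11 probes. Of these, 10 were above background on some eSLC array, 6 did not overlap and were higher in the later lines, and none was lower, beside 1.17% higher and 1.43% lower of all probes above background on some eSLC array. PRP3 was above the floor only in P4, at 62.7, and PRP8 was at the floor on every array. In the RefSeq table of the cattle genome, which is of another assembly than the array design, 8 PRP genes, CSH2 and PRL lie within 12 consecutive protein-coding genes on 1 chromosome. PRL (NM_173953), at one end of this stretch, did not separate the sides. Its signals were 103 in I2, 322 in N2 and 24.8 in P4, against 177 in I9, 54.9 in N7 and 110.0 in P1, a difference of -0.12. P4, the line with the highest signal of the 5 PRP genes, had the lowest of PRL. The PRPs are close copies of each other, and how far their probes share targets was not tested.

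The PRP genes kept their direction in every alternative run for them. Leaving out arrays or staying within a slide could not turn that direction, since these genes were chosen with sides that do not overlap. The difference of PRP2 ranged from 2.38 to 5.32 over these alternatives, and that of PRP6 from 1.57 to 4.36. Without P4, the line with the highest signals, PRP2 was 3.48 higher, PRP4 2.79 and PRP6 2.66. Within slide 1, where I2 stood against I9 and N7, PRP2 was 4.12 higher, and within slide 2, where N2 and P4 stood against P1, 4.48. In the closest pair of arrays on opposite sides, N2 had 3.93 times the signal of I9 for PRP2, at least 2.86 times for PRP6, 1.98 times for PRP4, 1.48 times for PRP1, 1.45 times for CSH2 and at least 1.39 times for PRP14. The first 2 of these were past 2-fold, where 0.951% of the genes tested were at least 2-fold higher in N2 than in I9. The direction between N2 and I9 is given by the choice of genes whose sides do not overlap.

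Most other trophoblast products overlapped between the sides. The list of ruminant trophoblast secreted products had 33 members tested, of which 8 did not overlap and were higher in the later lines (PRP2, PRP4, PRP6, PRP14, PRP1, CSH2, PAG10 and PGF) and 0 were lower, beside 1.61% and 1.44% of all genes tested. These members were partly those that the later lines alone brought into the test, and with a filter on all 6 arrays the count of 8 was 2. Its median difference was 0.43, beside 0.03 for all genes, and its members ranged from -2.48 to 4.21. Without N7 the median was -0.15, in the other direction. By origin it was 0.06 between I2 and I9, 2.11 between N2 and N7 and -0.15 between P4 and P1.

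PAG10 (NM_176621), an aspartic peptidase homolog of the PAG family, had signals of 143 in I2, 70.1 in N2 and 654 in P4. In the earlier lines it read 29.7 in I9, 13.7 in N7 and 37.7 in P1. It was 2.91 higher in the later lines (SE 0.85). The 17 PAG genes had 43 probes above background, and 3 of these did not overlap, all higher in the later lines, beside 1.17% of all such probes. A PAG6 probe was among them, with a difference of 2.11, while the 2 brighter PAG6 probes overlapped, at 0.27 and 0.32. The brightest PAG6 probe had a difference of -0.55 without N7. PAG16 resembled PAG10 only in part, at 31.7 in I2 and 102 in P4 and at the floor in N2 and in all earlier lines.

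The abundant PAGs followed other lines. PAG2 had signals of 74920 in I2, 275000 in N2 and 118900 in P4, and of 160000 in I9, 38080 in N7 and 146100 in P1. PAG11 was highest in N2, at 221700, and then in I9, at 142300. PAG5 was lowest in I2 and P4, at 247 and 1088, against 38430 in N2 and 39690 in I9, a difference between the sides of -2.48 by its brightest probe. Its 2 other probes went the other way, with differences of 0.51 and 0.36 and the lowest signal in N7, at 526 and 410. The sides overlapped in PAG2, PAG11 and all 3 probes of PAG5.

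TKDP4 was 2.56 higher in the later lines, with 63000 in I2, 308100 in N2 and 110100 in P4. Its earlier lines overlapped with these, at 177800 in I9, 2227 in N7 and 26300 in P1, and without N7 the difference was 0.91. TKDP1 differed by 0.43, or by 0.07 without N7. Interferon tau, measured as IFNT3, was highest in N7, at 61580, and second in P4, at 9157. The other lines read 1171 in I2, 553 in N2, 1199 in I9 and 146 in P1, so the sides overlapped. The difference was -0.29, and 2.11 without N7.

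Of the 21 trophectoderm transcription factors tested, none was 2-fold apart. None had sides that did not overlap, which is near the share of 3.05% over all genes tested. The median difference was 0.09, or -0.04 without N7. CDX2, which starts the trophectoderm program, read 10390, 7430 and 14900 in I2, N2 and P4 and 5188, 6576 and 13310 in I9, N7 and P1. GATA3 read 26560, 34370 and 24440 in the later and 35370, 17130 and 30140 in the earlier lines.

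Apart from the hormones, SRGN, PGF and ESM1 were at least 2-fold higher in the later lines with sides that did not overlap. SRGN and PGF also entered the test through the later lines only, since not all earlier lines measured them well above background. SRGN (NM_001025326) encodes serglycin, the proteoglycan core of secretory granules. It had signals of 60.7 in I2, 61.0 in N2 and 262 in P4, against 20.7 in I9 and the floor in N7 and P1, a difference of 2.68 (SE 0.61). The other SRGN probe was 0.81 higher, with I2 at the floor and sides that overlapped. PGF (NM_173950), placental growth factor, read 47.0 in I2, 101 in N2 and 112.5 in P4, against 30.1 in I9, 13.8 in N7 and the floor in P1. It was 2.20 higher (SE 0.47) by its brightest probe, and its 2 other probes above background lay near the floor, with differences of 0.04 and -0.28. By the brightest PGF probe the SCs read 49.0 and 46.1, near the signal of I2. ESM1, the secreted proteoglycan endocan, read 164, 157 and 233 in I2, N2 and P4 and 88.0, 39.4 and 73.5 in I9, N7 and P1, a difference of 1.52 (SE 0.36).

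The 3 other genes of this count, named here after their values were seen, were ULBP17, NAT1 and PPIL6. ULBP17 belongs to the UL16-binding proteins, which are ligands of a receptor of natural killer cells, and was 1.06 higher. NAT1, an arylamine N-acetyltransferase, was 1.02 higher and PPIL6, of the cyclophilin family, 1.00 higher. Of the 13 genes, 10 were highest in P4, and 11 were lowest in N7 or at the floor there.

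PLET1, a surface protein of placental trophoblast, was abundant and at least 2-fold higher in the later line of all 3 origins. Its signals were 10370 in I2 against 3304 in I9, 5788 in N2 against 576 in N7, and 24930 in P4 against 6215 in P1. The sides overlapped, since P1 lay above N2. The mean difference was 2.33 (SE 0.96), and it was 1.34 without N7.

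**Figure D2:**
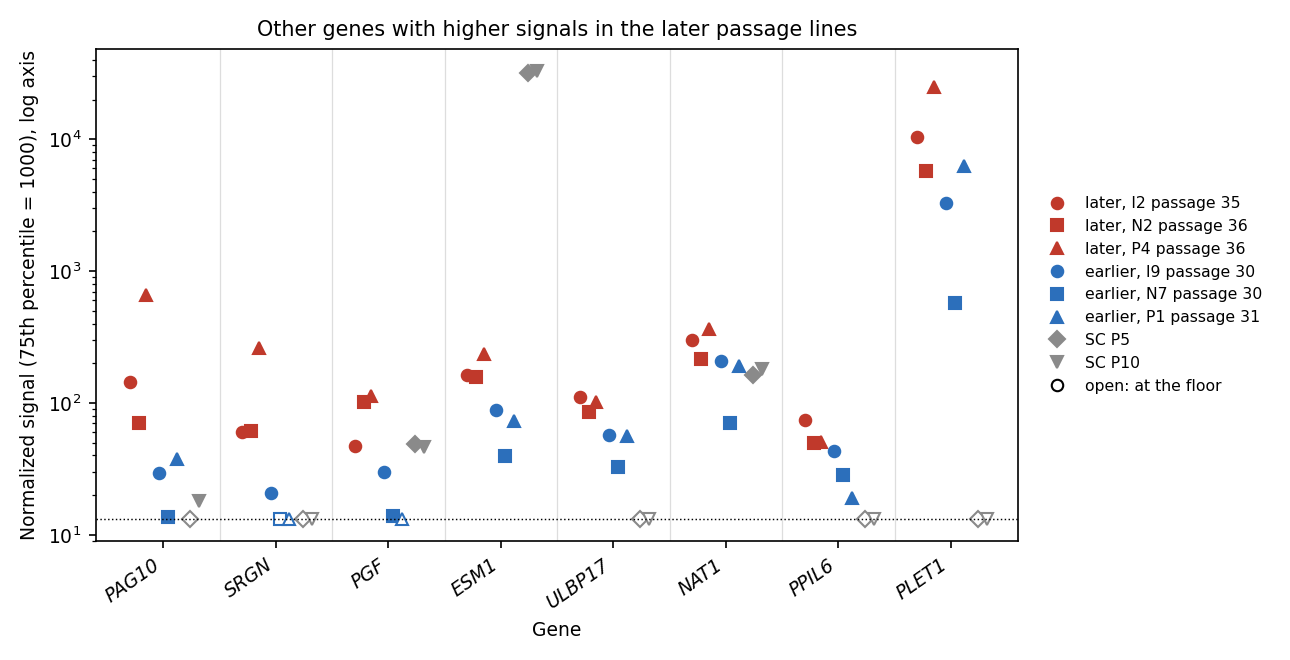
Normalized signals (log axis) of PAG10, SRGN, PGF, ESM1, ULBP17, NAT1, PPIL6 and PLET1 on each array, with the same symbols for lines and sides and open symbols at the floor. The later lines lie above the earlier lines in all but PLET1, where P1 is above N2, and ESM1 is far higher in SCs, at 31720 and 32850.

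Pairing the lines of each origin gave a further view of the same arrays. I2 exceeded I9 by 2-fold or more in 767 genes and lay below it in 719. N2 had 1291 higher and 802 lower than N7, and P4 had 360 higher and 639 lower than P1. Only 12 genes (0.116% of those tested) were at least 2-fold apart in the same direction in all 3 pairs, 6 higher and 6 lower. The 6 that were higher were PRP2, PRP4, PRP6, PAG10, SRGN and PLET1. Those that were lower were DDC, ATP6V1C2, MCUB, BEX3, STEAP2 and RAPGEF3.

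The pairs mostly went against each other. For the IVP and NT pairs, 108 genes were 2-fold apart in the same direction and 696 in opposite directions, with r = -0.48 across genes. IVP and PA gave 128 and 308, and NT and PA 202 and 308. The arrays of the IVP and NT pairs include I9 and N2, which were nearly alike and enter these differences with opposite signs.

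**Figure D3:**
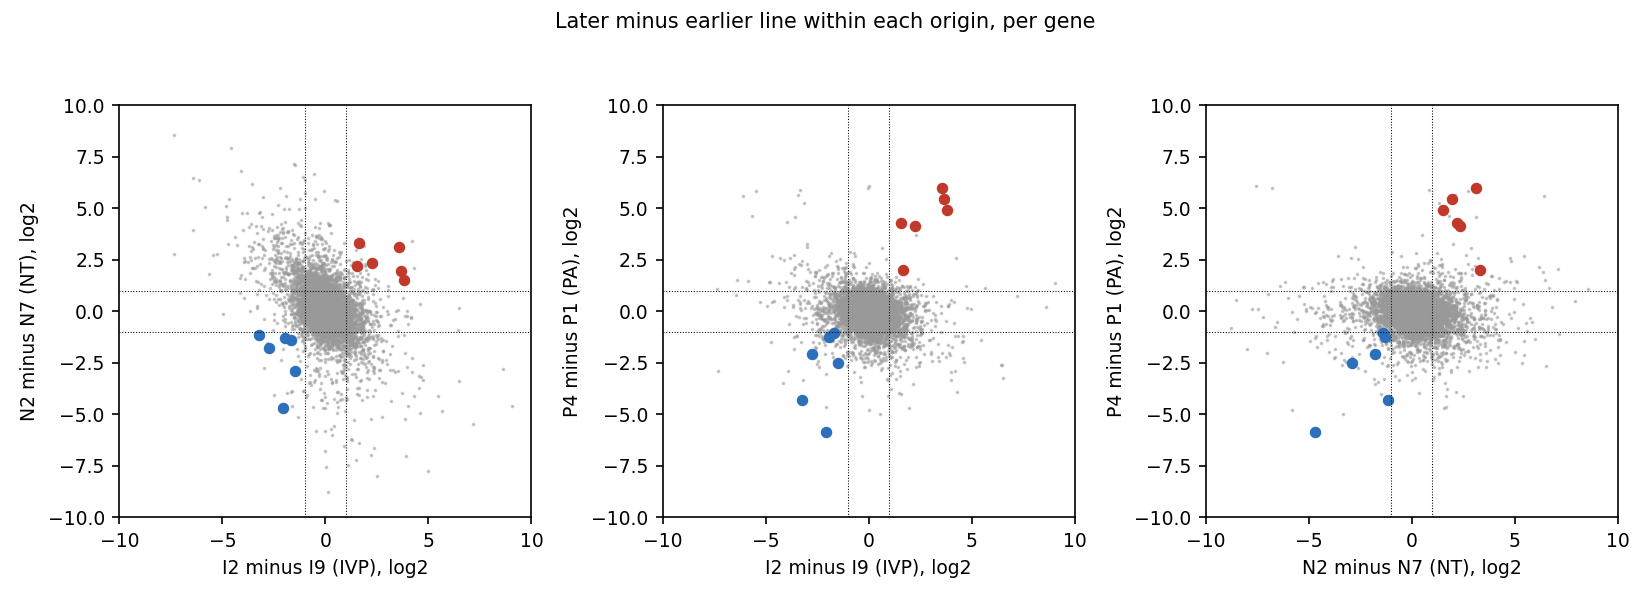
Log2 difference of the later minus the earlier line for each of the 10301 genes, 1 origin pair against another in each panel, with dotted lines at 2-fold. Red and blue points are the 6 genes at least 2-fold higher and the 6 at least 2-fold lower in the later line of all 3 origins.

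Among the 19 genes that were lower in the later lines, DDC had the largest difference. DDC, GUCA2A and NANOG were among those that entered the test through the earlier lines only, since not all later lines measured them well above background. With a filter that required all 6 arrays, the 19 lower genes were 14. DDC (NM_173907) encodes the decarboxylase that makes dopamine and serotonin. It was at the floor in I2 and P4 and read 23.8 in N2, against 55.1 in I9, 622 in N7 and 763 in P1. The difference was -4.20 (SE 1.00) by this probe, its brightest, and -3.67 without N7. The SC signals of this probe were 1800 and 1408. The other probe of DDC had a difference of -1.35, with I9 and all later lines at the floor, so its sides overlapped.

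ATP6V1C2 (NM_001083653), a subunit of the vacuolar proton pump, had signals of 48.3 in I2, 255 in N2 and 26.9 in P4, against 448 in I9, 560 in N7 and 538 in P1. The earlier lines lay close together, and N2 was the nearest of the later lines to them. The difference was -2.89 (SE 0.79), and -2.83 without N7. Its 2 probes gave -2.89 and -2.83.

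MCUB (NM_001075171), a subunit that dampens the mitochondrial calcium uniporter, read 364 in I2, 864 in N2 and 293 in P4. In the earlier lines it read 1013 in I9, 6402 in N7 and 1683 in P1. Its difference was -2.30 (SE 0.75), or -1.53 without N7. The SC arrays read 8146 and 8032 for MCUB. DDC, ATP6V1C2 and MCUB were lower in the later line of every origin.

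GBP4, an interferon-inducible GTPase, was the member of the interferon-stimulated genes with the widest separation of the sides. It had 208 in I2, 336 in N2 and 168 in P4, against 646 in I9, 552 in N7 and 537 in P1. The difference was -1.34 (SE 0.30), and it was -1.37 without N7. GBP4 was 1 of 31 interferon-stimulated genes tested with sides that did not overlap, a share close to the 3.05% of all genes tested, and the other members overlapped. The list's median was 0.25, or 0.10 without N7. By origin pair it was -1.07 in IVP, 1.05 in NT and 0.43 in PA. ISG15, for example, read 67.0 in I2, 1419 in N2 and 848 in P4, and 673 in I9, 801 in N7 and 14.5 in P1, with the lowest value in an earlier line and the next lowest in a later line.

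NANOG (NM_001025344), a core pluripotency factor, had low signals throughout. They were 16.8 in I2, 18.1 in N2 and the floor in P4, against 29.0 in I9, 32.4 in N7 and 35.4 in P1, a difference of -1.01 (SE 0.22). The lower values were all in later lines, and both SC arrays were at the floor. Its 2 other probes were above the floor only in N7, at 203 and 27.0, so their sides overlapped. POU5F1 was highest in N7, at 899, and the other lines, from 30.7 in I9 to 101 in P1, overlapped between the sides. SOX2 ranged from 46.9 to 64.9 in the later and from 50.6 to 99.5 in the earlier lines. Of the 13 pluripotency factors tested, NANOG alone had sides that did not overlap, beside 3.05% of all genes tested.

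Several of the genes lower in the later lines had a high signal in N7 alone. In 13 of the 19 genes N7 was highest, and in 6 it was at least 4-fold above I9 and P1. GUCA2A, which encodes the gut peptide guanylin, read 761 in N7 and at most 20.7 in any other line, and its difference of -2.12 was -0.38 without N7. SLC39A5, a zinc transporter, was at 3424 in N7, against 121 to 200 in the later lines and 224 and 237 in I9 and P1. Without N7 its difference of -1.75 was -0.45.

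RBP4, the plasma carrier of retinol, was at 3125 in N7 and 449 in I9, and P1, at 227, lay close to I2 at 218. Its difference was -1.79 (SE 0.92), or -0.69 without N7. Both SC arrays lay above N7 for RBP4, at 3293 and 4636. APOC4, an apolipoprotein, read 503 in N7 and 82.7 and 75.7 in I9 and P1, against 49.1 to 57.8 in the later lines (-1.46, or -0.57 without N7). EGFL8, a secreted protein with EGF-like domains, differed by -1.40, or -0.51 without N7. These genes lay in the same order of sides without N7, by smaller steps. That order is given by the choice of genes whose sides do not overlap.

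BMP7, a ligand of the TGF-beta superfamily, and NLN, the peptidase neurolysin, were less dependent on that line. BMP7 read 207, 113 and 159 in I2, N2 and P4 and 253, 999 and 280 in I9, N7 and P1 (-1.42, or -0.78 without N7). For NLN the later lines gave the floor, 42.9 and 26.9, and the earlier lines 53.1, 94.3 and 51.6 (-1.36, or -1.07 without N7).

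**Figure D4:**
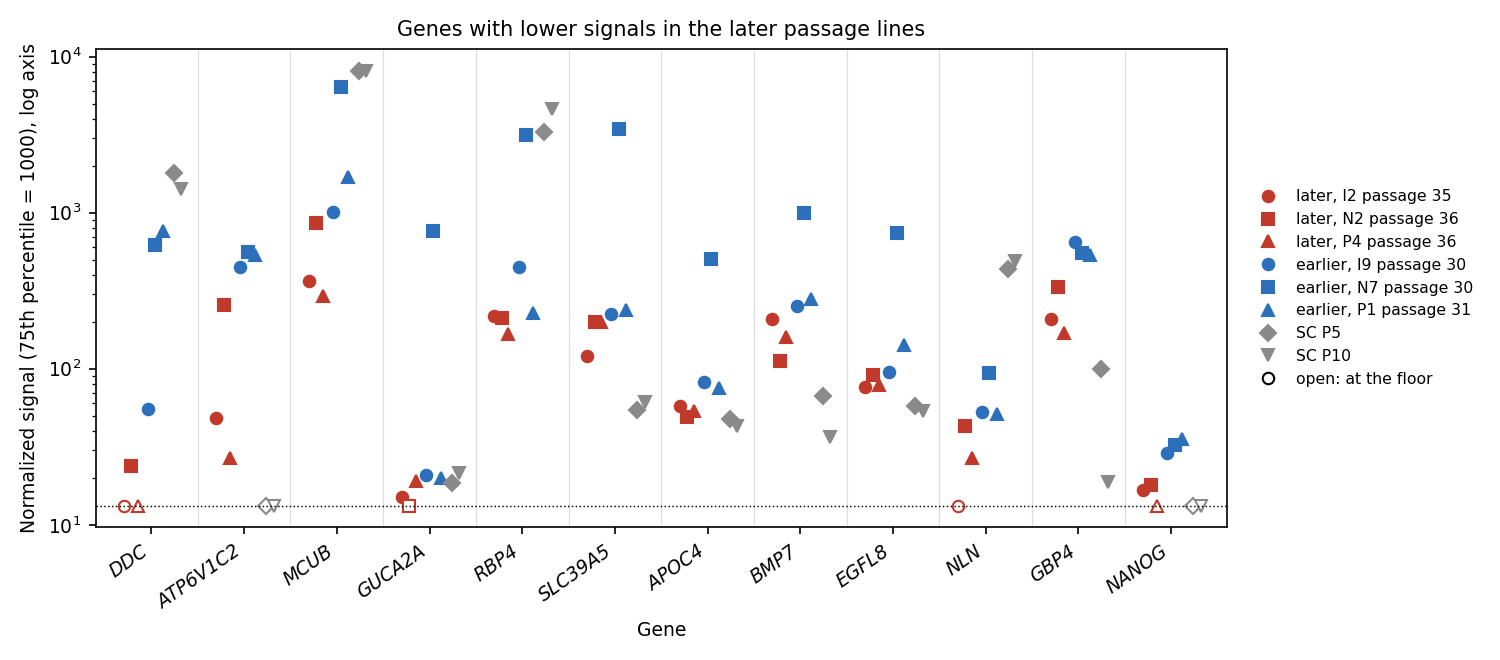
Normalized signals (log axis) of the 10 genes with the largest difference among those lower in the later lines, and of GBP4 and NANOG, on each array, with the same symbols and open symbols at the floor. N7 (blue squares) lies far above the other lines in GUCA2A, SLC39A5, RBP4 and APOC4, whereas the 3 earlier lines lie close together in ATP6V1C2, GBP4 and NANOG.

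The rest of the 19, named here after their values were seen, were LIX1, ARHGAP26, SERPINA1, VSIG2, UCP2, HHIP and FAM221A, with differences of -1.26 to -1.08 on the log2 scale. SERPINA1, at -1.18, was -0.62 without N7. UCP2 is an uncoupling protein of mitochondria and HHIP an antagonist of hedgehog ligands. LIX1 and HHIP lay at the floor in all 3 later lines, so their folds of at least 2.39 and 2.16 are limits. The genes BEX3, STEAP2 and RAPGEF3 were lower in the later line of each origin, with pair differences of -2.75 to -1.06 and with sides that overlapped because N2 lay above I9 and P1. BEX3, a brain-expressed X-linked gene, read 13.3 in I2 against 89.5 in I9, 150.2 in N2 against 512 in N7 and 16.8 in P4 against 70.2 in P1. It too entered the test through the earlier lines only.

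Markers of the hypoblast, the embryo layer that lines the yolk sac, had a median difference of -0.57 over 26 members tested, or -0.15 without N7. Of these, 7 were at least 2-fold lower and 2, RBP4 and SERPINA1, did not overlap, beside 1.44% of all genes tested. HNF4A, a transcription factor of hypoblast and liver, read 9035 in N7 and at most 23.4 in any other line. GATA4, a further hypoblast factor, read 2922 in N7 and at most 180 elsewhere. APOA1 was at 112800 in N7, 6824 in P1, between 1098 and 2659 in the other 4 lines and at 5696 and 4895 in SCs. SOX17, the other marker of the fixed set, did not share this pattern, at 2667 in N7 and 1908 to 2949 elsewhere, a difference of 0.15. The 4 markers summed to 127400 in N7, most of it APOA1, and to between 3474 and 8829 in the other lines.

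In the list of cholesterol and fatty acid synthesis, 4 of 37 members tested did not overlap and were higher and 0 were lower, beside 1.61% and 1.44% of all genes tested. Of the 37 members, none was 2-fold apart, and the median difference was 0.17. NSDHL, an enzyme that removes methyl groups from sterol intermediates, read 5419, 3840 and 3680 in I2, N2 and P4 and 3181, 2911 and 2028 in I9, N7 and P1, a difference of 0.68 (SE 0.27). FDFT1, squalene synthase, differed by 0.45, FDPS, which makes farnesyl diphosphate, by 0.33, and EBP, a sterol isomerase, by 0.21. Without N7 the difference of EBP was 0.08. By origin the list's median was 0.09 for IVP, 0.40 for NT and -0.03 for PA, and the members overlapped in the rest of the list.

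Genes of cell division, DNA repair, p53, telomeres and chromatin differed little. In the 7 lists of this kind, with 239 entries tested, none was 2-fold apart, 5 did not overlap and were higher and 2 did not overlap and were lower, a share near the 3.05% of all genes tested. The 7 are given as values only. Their medians lay between -0.16 and 0.02. NBN, a sensor of DNA breaks, was 0.36 higher in the later lines, PRIM2, a primase subunit, 0.33 and BARD1, the partner of BRCA1, 0.30. STN1, which binds telomeric DNA, was 0.61 higher and the Polycomb subunit SUZ12 0.11. The mitotic genes AURKB and MAD2L1 had differences of -0.17 and -0.40, the latter -0.20 without N7.

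CDKN1C, an inhibitor of cyclin-dependent kinases, varied between lines far more than between sides, at 15730 in I2, 6501 in N2 and 18950 in P4 and 4780 in I9, 8312 in N7 and 41180 in P1. The DNA methyltransferase DNMT3A likewise read 35200, 4271 and 33620 in the later and 5224, 23990 and 32000 in the earlier lines. In both genes N2 and I9 were near each other. The difference between the sides was 0.08 for CDKN1C and 0.11 for DNMT3A, or -0.17 and 0.41 without N7.

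Stress and metabolism lists also stayed near the value of all genes. ATF3, a stress-induced transcription factor, had a difference of -0.76. It read 1655, 2552 and 2447 in I2, N2 and P4 and 2931, 3828 and 4481 in I9, N7 and P1. No other of the 46 heat shock and unfolded protein response genes tested had sides that did not overlap, beside 3.05% of all genes tested. MT3, a metallothionein, had a difference of -0.53 and was 1 of 42 oxidative stress defence genes tested without overlap, beside the same share. COPG2, which lies in an imprinted region, had a difference of -0.64 and was the single one of 26 imprinted genes without overlap, beside 3.05% of all genes tested. Glycolysis had a median of 0.10, or -0.13 without N7, with 0.26 in the IVP, 0.51 in the NT and -0.46 in the PA pair. Oxidative phosphorylation had a median of 0.06, or -0.03 without N7, with NDUFAB1 0.19 higher.

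Among the readouts of the inhibited pathways, IER2, an immediate early gene of FGF and MEK signaling, was 0.31 higher, and WNT5A, of the WNT list, had a difference of -0.50. Both were the single members of their lists without overlap, of 24 and 26 tested, where 3.05% of all genes did not overlap. Of the epithelial genes, the tight junction protein OCLN was 0.28 higher and the polarity protein PARD6B had a difference of -0.36. VIM, read at 3020, 2843 and 2084 in the later and 2970, 1539 and 2068 in the earlier lines, overlapped, as did all 17 fibroblast markers tested. YWHAZ, 0.32 higher, was 1 of 18 housekeeping genes tested without overlap. Over all genes tested, the signals of 3.05% did not overlap.

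Of the 28 lists, none had a member that was called, and 24 had a median within 0.2 of 0. In only 1 list, the hypoblast markers, did the medians of the 3 origin pairs have the same sign.

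**Figure D5:**
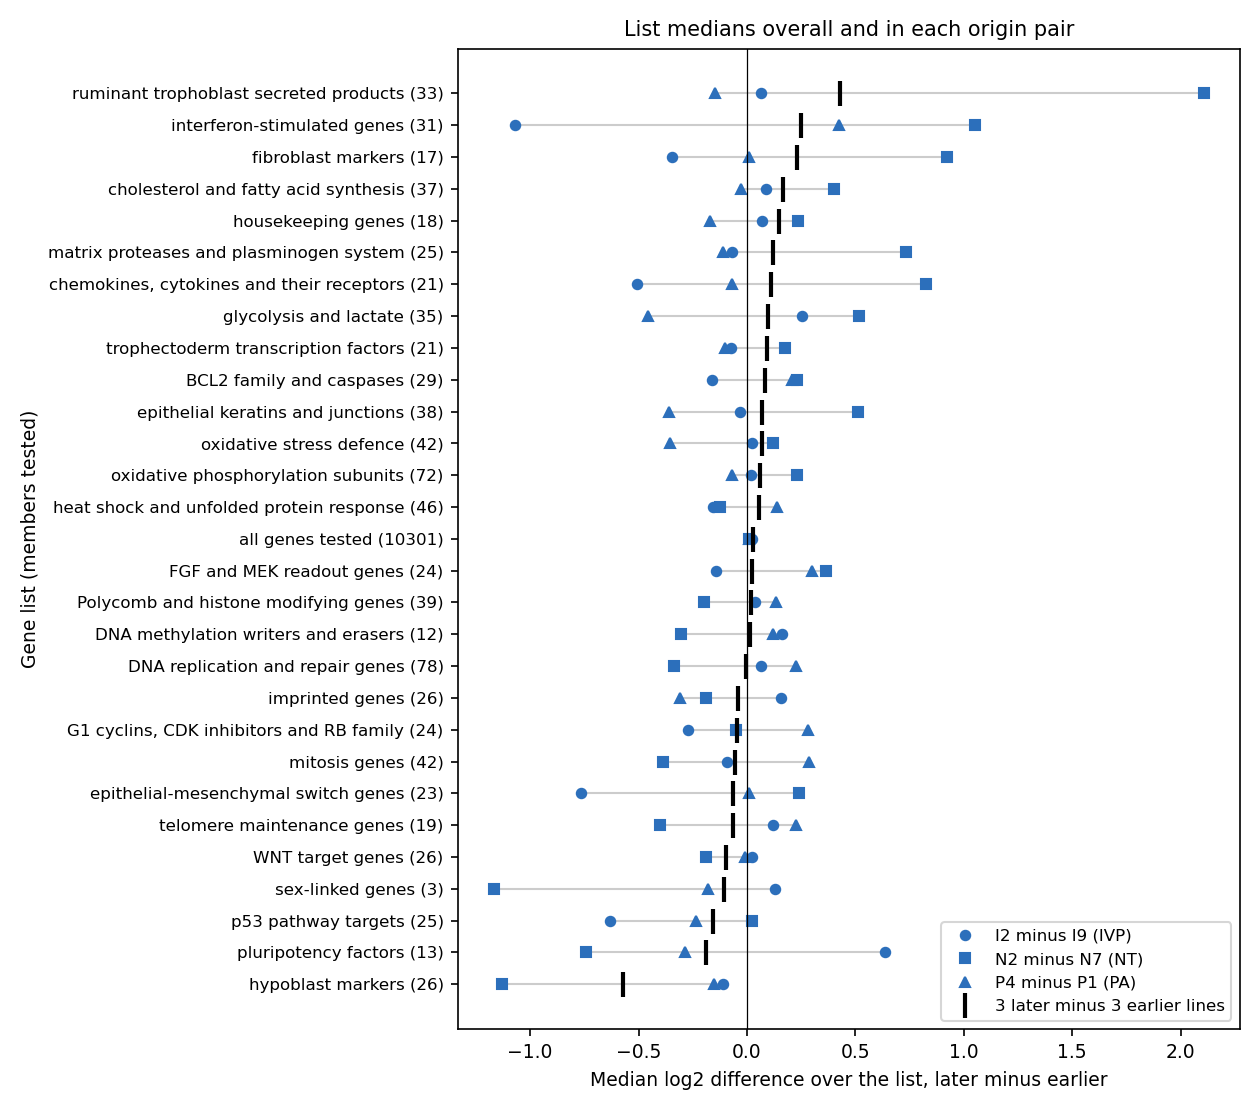
Median log2 difference, later minus earlier, for each gene list with the number of members tested, over 3 against 3 lines (black bars) and in the IVP, NT and PA pairs (symbols). The NT pair, N2 minus N7, lies farthest out in most lists, at 2.11 for the trophoblast products and -1.13 for the hypoblast markers, and 24 of the 28 bars lie within 0.2 of 0.

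The 3 genes farthest from the other lines were listed for each line. For N7 these were HNF4A, AHSG, the plasma glycoprotein fetuin, and SERPINF2, a plasmin inhibitor. CYP2C87, a cytochrome P450, and GTSF1, a germ cell factor, set both I9 and N2 apart. CYP2C87 read 13.3 in I9 and 15.7 in N2 and between 110.1 and 5263 in the other lines. Among the 6 lines, P4 alone had members of the count above as its farthest genes, PRP2 and PRP4, together with CCL2, a chemokine that read 873 in P4, 1114 in N2 and 926 in I9 and at most 18.4 in the other lines.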

How the data were processed

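Labelled RNA of each sample was hybridized with 1 dye (Cy3) to a bovine 44K oligo microarray, scanned and quantified with Feature Extraction version 11.5.1.1 per the file headers. The deposited scanner output holds linear signal intensities without normalization between arrays, and the deposited series matrix holds intensities that the authors normalized with GeneSpring GX by steps not given in the sources used here. The processed signal of the scanner output did not follow the rest of its row in the files of 6 arrays (Spearman's correlation with the background-subtracted signal 0.161 to 0.216, against 0.973 in I2 and 0.971 in N2), so the background-subtracted signal was used.

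Control spots and spots marked as outliers were left out, and spots of a probe were averaged. Signals were scaled to the 75th percentile (1000), raised to a floor of 13.3, which is the largest scaled detection limit of any array, and taken to log2. RefSeq accessions named 26743 of 43653 probes. The probe with the highest mean over the 6 eSLC arrays stood for each gene. Where a gene was at the floor or not well above background on all 3 arrays of a side, its fold is given as at least the value against the floor. The sides were compared with limma version 3.58.1 (lmFit and eBayes, no covariate) in R version 4.3.3, a step also tested on simulated data. Figures were drawn with matplotlib version 3.10.9.

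The compared lines, the 28 gene lists and the rules were chosen with earlier results of these data known. Named genes were the 10 with the largest difference in each direction among those at least 2-fold apart without overlap, the 6 in each direction 2-fold apart in every origin pair, up to 4 members of a list without overlap or else its 2 brightest, the 3 genes farthest from the other lines for each line, and the cell type markers. Not every gene that the rule names is described. Slide 1 held I2, I9 and N7, and slide 2 N2, P1 and P4. The alternatives were other scalings, signals, filters, floors and tests, origin as a block, the slide, and leaving out arrays. No probe or promoter sequence was used here.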

Additional observations from a re-analysis of the deposited data

Results flagged for a closer look

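The effects of the later against the earlier line differed between origins, and these differences were not tested, since each origin has 1 pair of lines. In the IVP and NT pairs 696 genes were at least 2-fold apart in opposite directions. The IVP and PA pairs had 308 such genes, and the NT and PA pairs also 308. With 3 lines on a side, no group was large enough for a test of single outlying arrays.

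Probes without a gene name were not part of the comparison. Of 10126 such probes well above background on every array of a side, 10 were higher and 33 lower in the later lines by 2-fold or more without overlap. Among the 10301 named genes tested, 0.126% were higher and 0.184% lower in this way. In 8 of the 10 unnamed probes that were higher, every later line also lay above both SC arrays. How often this held over all unnamed probes is not given here. The targets of these probes are not named here.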

How the results depend on the processing

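No gene was called by limma under any alternative, with the origin as a replicate block included (0 called, with 70 genes at an unadjusted p under 0.05). The methods' t-test before adjustment gave 8 genes higher and 5 lower in the later lines, and none after Benjamini-Hochberg adjustment. Unadjusted, 26 genes passed without P4 and 330 without P1. The lowest adjusted p of a gene lay between 0.0556, for DDC without I9, and 1 over the limma fits. The counts of genes 2-fold apart without overlap, 13 higher and 19 lower, were 39 and 45 at 1.5-fold, 4 and 12 with a floor 4 times as high, 728 and 498 within slide 1 and 497 and 796 within slide 2, each with 3 arrays. The count of lower genes was 9 with normexp, which used the median spot signals. With a filter on all 6 arrays the counts were 6 higher and 14 lower. Higher and lower counts were 37 and 51 without I2, 102 and 106 without N2, 22 and 20 without P4, 111 and 113 without I9, 11 and 44 without N7, 91 and 101 without P1, and 138 and 158 without I9 and N2. Fewer arrays overlap less often by construction. The genes 2-fold apart in all 3 origin pairs, 6 and 6, were 14 and 18 at 1.5-fold, 2 and 2 with the higher floor, 2 higher with the filter on all arrays and 3 lower with normexp. This count cannot be had without a line or within a slide.

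The processed signal gave 720 higher and 128 lower without overlap, 117 and 14 in all 3 pairs, r = 0.5484 for I9 and N2, 2 trophoblast products without overlap and a hypoblast median of 0.86. It is out of step with the probes and was not used for single genes. With the authors' series matrix values, whose median over all genes was 0.66, these were 624 and 52, 159 higher in all 3 pairs, r = 0.9232 and a hypoblast median of 0.47. The 8 trophoblast products without overlap were 2 with the filter on all arrays, 3 with the higher floor, 17 and 16 within slides 1 and 2 and 8 to 11 without 1 array. The list's median ranged from -0.15 without N7 to 0.98 without I9 and was 1.40 with the processed signal. The hypoblast median lay between -1.07 without P1 and -0.15 without N7 when 1 array was left out, and was -0.14 within slide 2.

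Of 47 genes followed, 28 did not turn direction under any alternative, and NANOG was 0 with the higher floor. Where the sides of a gene do not overlap, leaving out arrays cannot turn its direction. In the series matrix values, not corrected for the shift of 0.66, the differences were 0.80 for APOC4, 0.72 for ATF3, -0.12 for BARD1, 0.99 for BMP7, 0.93 for COPG2, 0.90 for EGFL8, -0.16 for FDPS, 0.73 for MAD2L1, 1.19 for MCUB, 0.63 for NLN, -0.17 for OCLN, 0.98 for PARD6B, 0.68 for RAPGEF3, 0.34 for RBP4, 0.76 for SERPINA1, 0.95 for SLC39A5, 0.73 for STEAP2, -0.34 for SUZ12 and 0.89 for WNT5A. Within slide 2 STEAP2 was 0.23. The cause was not tested. Signals near the floor, as in the earlier lines for the PRP genes, limit how large a fold can be measured.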
